A study of Mus musculus with 4 samples.

Results

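The genes described here are 9 components of the Hedgehog pathway, namely Shh, Ptch1, Gli1, Gli2, Gli3, Hhip, Smo, Boc and Gas1, followed through the cell types, stages and jaws of the developing mouse molar. They were chosen by gene symbol, and all 9 are among the 32285 genes of the count tables. Single-cell RNA sequencing of wild-type B6 mice (C57BL/6J in the study's methods) gave 4 libraries, 1 of the molar tooth organ of each jaw, maxillary and mandibular, at the embryonic stage E15.5 (E15 in the sample labels) and on postnatal day 1 (P1). No treatment or altered allele was part of any group. Each library pooled 6 tooth organs, and each stage and jaw has 1 library, so no difference between stages or jaws can be set against the spread between animals, and no p-values are given.

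Hedgehog ligands are secreted proteins that bind the receptor Ptch1. Without ligand, Ptch1 holds the membrane protein Smo inactive, and with ligand Smo becomes active in the primary cilium and changes the processing of the Gli transcription factors. Gli2 acts mainly as an activator and Gli3 mainly as a repressor. Ptch1, Gli1 and Hhip are themselves transcribed in response to the signal, so their transcripts mark responding cells in many tissues. Boc and Gas1 are cell surface co-receptors that help Ptch1 bind ligand, whereas Hhip binds ligand and keeps it from the receptor. In the tooth, Shh is known as a signal of the dental epithelium, including the enamel knots, the epithelial signalling centres that shape the cusps.

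The libraries held 10885 (E15.5 maxillary), 7947 (E15.5 mandibular), 18707 (P1 maxillary) and 19401 (P1 mandibular) barcodes, with 109723360, 86659227, 128812956 and 139873101 unique molecular identifiers (UMIs, tags that each mark 1 captured RNA molecule). Barcodes with at least 1000 UMIs were used. The P1 libraries shared 7131 barcodes, 38.1% of the maxillary and 36.8% of the mandibular ones, while any other pair of libraries shared between 28 and 70. Shared barcodes were therefore left out of the P1 mandibular library. This left 10073, 6911, 17040 and 10120 cells in the order above, with median depths of 9596, 11234, 4019 and 10390 UMIs per cell.

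The shared barcodes were not spread evenly over the P1 maxillary cells. They made up 97.0% of its dental papilla-like cells, 95.7% of its odontoblast-like cells, 68.4% of its epithelium and 18.7% of its other mesenchyme. Among barcodes with at least 1000 UMIs, those shared had a median of 12089 UMIs in the maxillary library and those found there alone had 2545. In the mandibular library the depths were the other way round, with a median of 2964 UMIs for the shared barcodes and 10390 for the rest. Which library the shared cells came from was not tested here, and the P1 maxillary ratios of the main comparisons are given below with and without them. Levels of single classes, shares of cells and values of clusters include them unless stated. Without them the odontoblast-like class kept 18 cells and the ameloblast-like class 17, so their P1 maxillary values rest on the shared barcodes.

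Cells were grouped by clusters of each library and named from marker genes, and none of the 9 genes was used in the clustering. The epithelium held 774, 131, 1852 and 1585 cells and the mesenchyme 5567, 2918, 9103 and 4894 cells, in the order E15.5 maxillary, E15.5 mandibular, P1 maxillary and P1 mandibular, which is kept below. All 6 epithelial markers (Epcam, Cdh1, Krt5, Krt14, Trp63, Perp) were higher in the epithelium than in all other cells used, in all 4 libraries. The same markers also named the epithelial clusters. The share of tooth cells differed widely between libraries. Tooth epithelium-like cells (enamel knot, dental epithelium, ameloblast, stellate reticulum and stratum intermedium) were 15.2%, 45.0%, 50.3% and 65.7% of the epithelium. Papilla-like and odontoblast-like cells were 4.20%, 12.4%, 44.3% and 44.4% of the mesenchyme. The 12.4% is a single cluster led by Col8a1, whose leading genes hold Sostdc1, a dental epithelium marker, and none of the papilla markers. Among P1 maxillary cells outside the shared barcodes, tooth epithelium-like cells were 30.7% of the epithelium, and papilla-like and odontoblast-like cells 3.01% of the mesenchyme. Hence the make-up of a class moved with stage and jaw, and values within the tooth classes are given beside those of the whole tissue.

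The promoters of 6 of the 9 genes were read from RefSeq (GRCm38.p6), those of Ptch1, Gli2, Gli3, Hhip, Smo and Gas1. Each is the 250 bases before the RefSeq start of the gene. A Gli binding motif (GACCACCCA or its reverse complement TGGGTGGTC) was in none of these 6 windows, and in 74 of 32851 windows of the same length over all genes, or 0.225%. The GC box (GGGCGG or its reverse complement CCGCCC) was in 5 of the 6, all but Smo, against 10756 of all windows, or 32.7%. The promoters of Ptch1, Hhip and Gas1 are shown because these genes had the clearest differences between epithelium and mesenchyme or between kinds of mesenchyme below. GC boxes are in capitals, and each sequence is on the minus strand, from 5′ to 3′. The windows were chr13:63565736-63565985 for Ptch1, chr8:80058009-80058258 for Hhip and chr13:60177536-60177785 for Gas1.
Ptch1: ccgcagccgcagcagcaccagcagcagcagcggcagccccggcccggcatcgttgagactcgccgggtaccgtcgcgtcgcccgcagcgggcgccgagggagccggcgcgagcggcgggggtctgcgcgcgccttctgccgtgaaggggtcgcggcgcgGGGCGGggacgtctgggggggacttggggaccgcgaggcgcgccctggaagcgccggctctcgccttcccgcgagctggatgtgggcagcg
Hhip: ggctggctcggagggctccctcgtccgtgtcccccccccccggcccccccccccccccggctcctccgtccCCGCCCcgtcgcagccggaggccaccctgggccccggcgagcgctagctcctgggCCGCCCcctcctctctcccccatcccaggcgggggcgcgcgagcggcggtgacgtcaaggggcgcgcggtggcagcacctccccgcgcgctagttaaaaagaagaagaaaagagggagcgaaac
Gas1: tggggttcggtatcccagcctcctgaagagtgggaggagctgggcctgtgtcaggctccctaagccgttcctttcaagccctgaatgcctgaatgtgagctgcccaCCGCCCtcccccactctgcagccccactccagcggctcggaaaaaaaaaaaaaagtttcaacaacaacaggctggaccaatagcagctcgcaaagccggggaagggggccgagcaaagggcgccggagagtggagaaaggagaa
The Ptch1 window had 41 CG pairs and a GC content of 78.4%, Hhip had 28 and 76%, and Gas1 had 10 and 58.8%, against medians of 6 CG pairs and 52.4% over all promoters. In the mm10 annotation the Hhip window lies outside the gene, and the Gas1 window lies outside Gas1 but within a noncoding gene on the other strand. The Ptch1 window lies in an intron of a longer Ptch1 transcript. The Gli3 window, chr13:15463473-15463722 on the plus strand, also lies inside its annotated gene, which starts at 15463235. A match of letters is a description of the sequence only.

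Levels are given in CPM, the UMIs of a gene summed over the cells of a class per 1000000 UMIs of that class. Intervals are at 95% and cover counting error only. A gene was called higher or lower between classes at a ratio of at least 2-fold, that is 1 on the log2 scale, with at least 20 UMIs in both classes together.

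Shh, the ligand (ENSMUSG00000002633, mm10 chr5:28456815-28467256, minus strand), was far higher in the epithelium than in the mesenchyme in all 4 libraries. Its level was 35.1, 149, 356 and 369 CPM in the epithelium and 0.0999, 0.0484, 2.80 and 5.04 CPM in the mesenchyme. At E15.5 the log2 ratio of epithelium to mesenchyme was 8.46 [7.32, 9.91] in the maxilla and 11.59 [9.73, 14.64] in the mandible, where the mesenchyme held 6 and 2 Shh UMIs. At P1 it was 6.99 [6.79, 7.19] and 6.20 [6.03, 6.36]. The epithelium thus lay above the mesenchyme in every library by far more than counting error, and without the shared barcodes the P1 maxillary ratio was 7.04, from levels of 63.9 and 0.484 CPM. A further 74, 1, 1673 and 3306 Shh UMIs lay in 493, 200, 1133 and 1171 cells that enter no class. Most of those at P1, 1133 and 2559 UMIs, were in 362 and 333 cells of epithelial groups set aside because markers of another class led them, at 484 and 595 CPM, and 516 and 621 UMIs were in groups set aside as doublets. A P1 mandibular group of 219 such cells had both haemoglobin genes and the ameloblast gene Amelx among its leading genes. Clusters without a name held only 18 and 126 of these UMIs. Counting all 9 genes, 3, 4, 4 and 5 were past 2-fold between epithelium and mesenchyme, where 33.3%, 31.7%, 35.4% and 34% of all genes tested were.

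**Figure D1:**
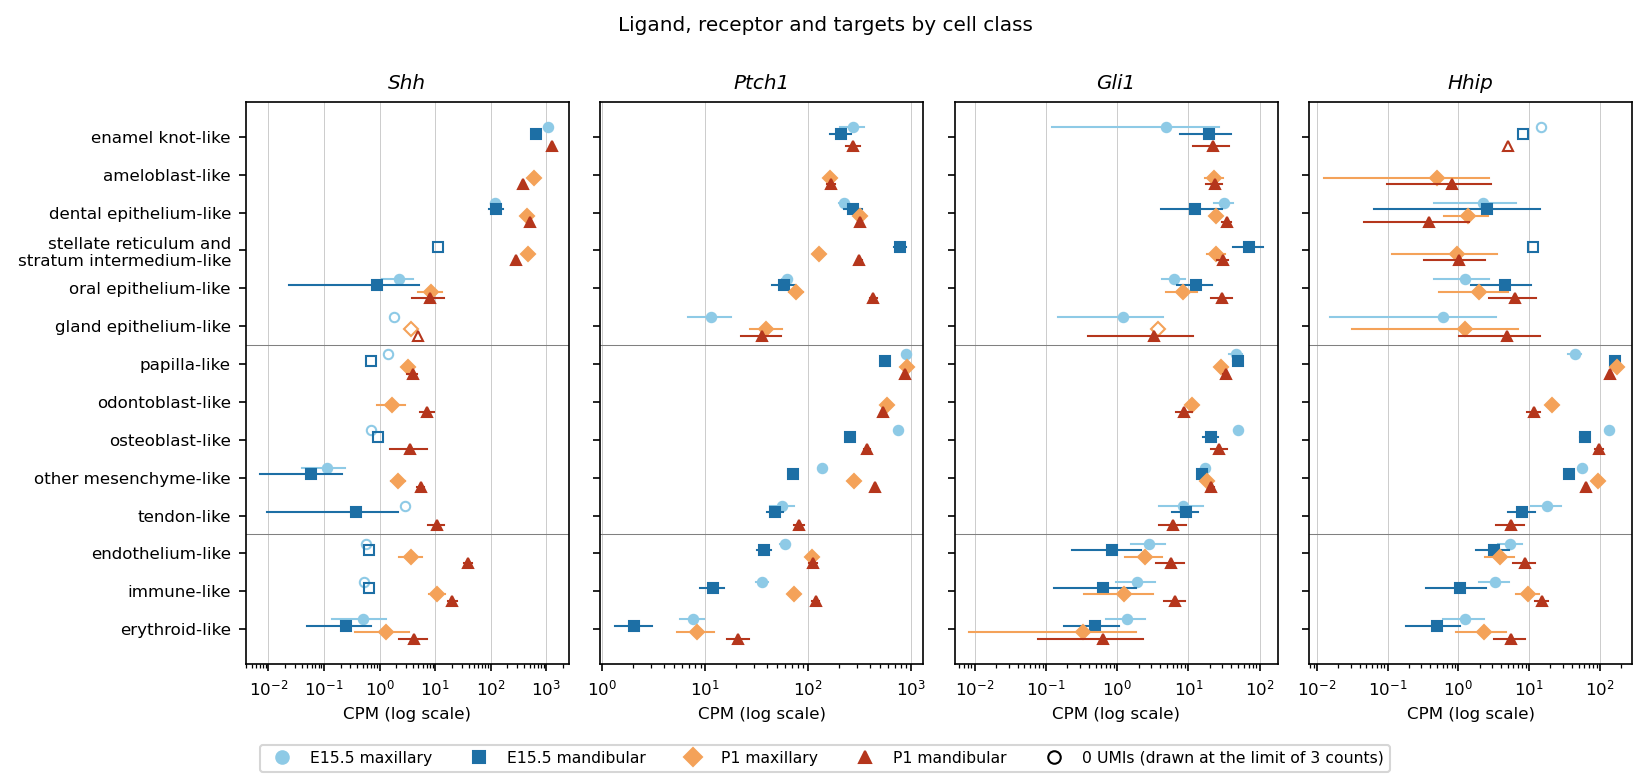
Levels of Shh, Ptch1, Gli1 and Hhip (CPM, log axis) in the named cell classes of the 4 libraries. Points are levels, horizontal bars are 95% Poisson intervals, and open symbols mark 0 UMIs, drawn at the level of 3 counts. Shh lies to the right in the tooth epithelium-like classes, reaching 1272 CPM, and Hhip in mesenchymal classes. The exception is the E15.5 mandibular class like stellate reticulum and stratum intermedium, with 0 Shh UMIs.

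Within the epithelium, the highest level of Shh was in enamel knot-like cells. Their Shh level was 1051 CPM [916, 1201] in 25 E15.5 maxillary cells, 651 [571, 739] in 18 E15.5 mandibular cells and 1272 [1182, 1366] in 71 P1 mandibular cells. No P1 maxillary cluster was named enamel knot-like. The remaining dental epithelium-like cells, had 119, 126, 442 and 506 CPM, and in the E15.5 mandibular molar all 50 of their Shh UMIs lay in 2 of 19 cells. The log2 ratio of knot to dental epithelium was 3.15 [2.85, 3.45], 2.37 [1.93, 2.84] and, at P1 in the mandible, 1.33 [1.21, 1.45]. In these comparisons 40.2%, 23.8% and 25.8% of all genes tested were past 2-fold in either direction, so that passing 2-fold was common among genes. The share of genes that changed as much as Shh is not given, and the knot-like groups are small.

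In the P1 maxillary molar 150 dental epithelium-like cells outside the shared barcodes had 141 CPM. At P1 Shh was also high in ameloblast-like cells, the enamel-forming lineage. The level was 605 CPM [572, 640] in 185 maxillary cells and 384 [360, 409] in 226 mandibular cells. Ameloblast-like and dental epithelium-like cells differed by less than 2-fold in both, with log2 ratios of 0.45 and -0.40, which point in opposite directions in the jaws, and 32.7% and 29.7% of all genes tested were past 2-fold. Cells like the stellate reticulum and stratum intermedium, the supporting layers behind the ameloblasts, had 459 CPM (154 maxillary cells) and 280 (327 mandibular cells) at P1. At E15.5, 22 mandibular cells of this class held 0 Shh UMIs, which allows up to 11.2 CPM. Shared barcodes made up 90.8% of the maxillary ameloblast-like cells and 91.6% of the maxillary cells like stellate reticulum and stratum intermedium. Outside them, 17 P1 maxillary ameloblast-like cells had 198 CPM, from 5 UMIs. The level of the supporting layers outside them is not given.

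Shh was lower in the oral and gland epithelium-like classes than in dental epithelium-like cells. Oral epithelium-like cells, marked by keratins such as Krt13 and Krt4, had 2.26, 0.918, 8.28 and 7.96 CPM, and their log2 ratios to dental epithelium-like cells were -5.72, -7.10, -5.74 and -5.99. Between these classes 21.9%, 35.6%, 27.4% and 27.8% of all genes tested were past 2-fold. In the P1 maxillary molar outside the shared barcodes, 166 oral epithelium-like cells had 20.6 CPM, from 14 UMIs, and the ratio was smaller, at -2.77 [-3.73, -1.91], with 21% of all genes tested past 2-fold. Gland epithelium-like cells held 0 Shh UMIs in 75 E15.5 maxillary, 177 P1 maxillary and 36 P1 mandibular cells.

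The same order was seen in the share of cells with a Shh UMI after every cell was thinned to 2000 UMIs. The share was 82.6% [61.2, 95], 62.5% [35.4, 84.8] and 83.6% [71.9, 91.8] of knot-like cells in the libraries that had them, with exact binomial intervals. Thinning left out 2, 2 and 10 of these cells, and without it the shares were 88%, 77.8% and 91.5%, at median depths of 3782, 12796.5 and 7668 UMIs. In dental epithelium-like cells it was 18.8%, 11.8%, 43.9% and 57.2%, with 13, 2, 92 and 27 cells left out. Unthinned, it was 26.9%, 10.5%, 58.9% and 77.2%, at median depths of 13995, 19044, 9577 and 11620 UMIs. Immune-like cells, which should lack Shh, had 0%, 0%, 0.703% and 1.35%, at median depths before thinning of 9541.5, 12224, 3045 and 7524 UMIs. The 0% at E15.5 allows a share of up to 0.645% and 0.965%. Their unthinned shares were 0%, 0%, 1.63% and 4.88%, and 43, 32, 126 and 35 of them were left out. The shares in knot-like and dental epithelium-like cells lay above those of immune-like cells in each library.

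Outside the epithelium, more Shh was found at P1 than at E15.5. Immune-like cells had 0, 0, 10.9 and 20.4 CPM, erythroid-like cells 0.502, 0.245, 1.33 and 4.18, endothelium-like cells 0, 0, 3.71 and 38.6 and glia-like cells 0, 0, 7.71 and 45.0. In the P1 mesenchyme, Shh fell to 1.80 and 2.64 CPM once the cells with the highest doublet scores were left out. For each 100 UMIs of epithelial markers, the P1 mesenchyme held 7.41 and 7.07 Shh UMIs and the P1 epithelium 8.0 and 7.84. At E15.5 the mesenchyme held 0.420 and 0.725, from 6 and 2 Shh UMIs, and the epithelium 0.605 and 2.67. In the P1 mandibular endothelium-like cells, 143 Shh UMIs lay in 21 cells, 48 of them in a single cell, and 2 were left without the highest doublet scores. In the 99 P1 mandibular glia-like cells, 50 Shh UMIs lay in 6 cells, and 14.4 CPM was left without the highest doublet scores. The part of epithelial transcripts in these levels was not tested.

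Ptch1, the receptor and a transcriptional target of the pathway (ENSMUSG00000021466, chr13:63508328-63573598, minus strand), was found on both sides. Its level was 181, 202, 297 and 292 CPM in the epithelium and 206, 136, 702 and 612 in the mesenchyme. At E15.5 the tissues differed by less than 2-fold, with log2 ratios of epithelium to mesenchyme of -0.19 [-0.25, -0.12] and 0.57 [0.44, 0.70]. At P1 the mesenchyme was higher, with -1.24 [-1.28, -1.20] and -1.07 [-1.11, -1.03]. Without the shared barcodes, the P1 maxillary levels were 144 in the epithelium and 182 in the mesenchyme, and the ratio was -0.34.

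**Figure D2:**
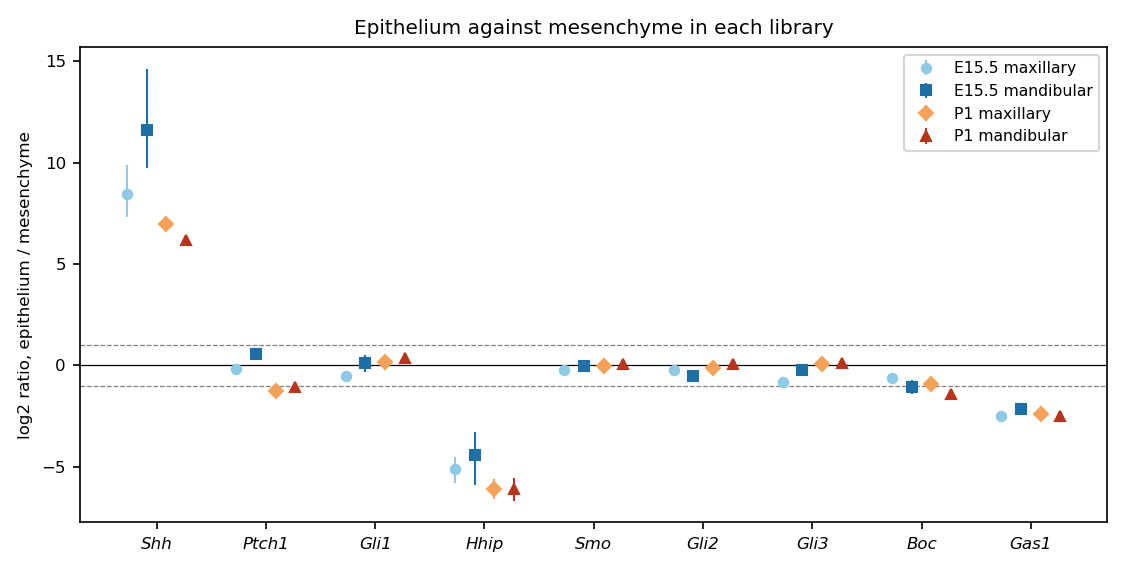
Log2 ratio of epithelium to mesenchyme for the 9 genes in each of the 4 libraries. Points are ratios of summed levels, bars are 95% counting intervals and dashed lines mark 2-fold; Shh lies far to the epithelial side, Hhip and Gas1 to the mesenchymal side, and Smo and Gli2 within 2-fold in all 4 libraries.

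The Ptch1 level was higher in cells like the dental papilla than in the other mesenchyme. The papilla is the mesenchyme under the tooth epithelium that gives rise to pulp and odontoblasts. In the E15.5 maxillary molar most mesenchymal Ptch1 UMIs still lay elsewhere, since papilla-like cells held 1933 of 12385. P1 mandibular papilla-like cells held 20577 of 39181, which is most of them. Papilla-like cells had 900 CPM [861, 941] in 234 E15.5 maxillary cells, 564 [542, 588] in 363 E15.5 mandibular cells, 918 [909, 927] in 3608 P1 maxillary cells and 869 [857, 880] in 1784 P1 mandibular cells. Against the other mesenchyme, the log2 ratio was 2.73 [2.66, 2.80], 3.0 [2.91, 3.08], 1.70 [1.66, 1.74] and 0.95 [0.92, 0.98]. The last of these stayed under 2-fold, but the classes hold unlike clusters in the jaws. A P1 mandibular cluster of 694 cells led by Csmd1 and Stbd1, genes that also lead a papilla-like P1 maxillary cluster, was counted as other mesenchyme and had 926 CPM Ptch1. Without it the ratio was 2.04 [1.99, 2.09], an alternative added after the clusters were seen. Counting all 9 genes, 4, 5, 4 and 3 were past it, and 22.4%, 21%, 22.5% and 21.3% of all genes tested were. Among the 110 P1 maxillary papilla-like cells outside the shared barcodes the level was 1038, against 157 in the other mesenchyme outside them, a log2 ratio of 2.72 [2.55, 2.89]. All E15.5 mandibular papilla-like cells formed a single cluster, led by Col8a1, with Sostdc1, a dental epithelium marker, among its 10 leading genes and none of the papilla markers. Values given for papilla-like cells of that library are those of this cluster.

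Some Ptch1-rich mesenchyme lay outside the papilla. Osteoblast-like cells had 741 (E15.5 maxillary), 255 (E15.5 mandibular) and 374 (P1 mandibular) CPM. A P1 maxillary cluster of 636 cells with Spp1, Ibsp and Runx2 among its leading genes, genes of bone-forming cells, had 1086 CPM (689 in the 381 cells outside the shared barcodes), and a P1 mandibular cluster of 105 cells led by Bmp3, Mdga2 and Spon1 had 1580. These clusters were picked after their values were seen. At the other end, tendon-like cells had 56.3, 47.5 and 82.0 CPM in the E15.5 maxillary, E15.5 mandibular and P1 mandibular molars, where immune-like cells had 35.9, 11.8 and 119.

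Odontoblast-like cells, the dentin-forming lineage that arises from the papilla, had lower Gli1 and Hhip levels than papilla-like cells at P1. Their Ptch1 level was 589 and 535 CPM in the maxillary and the mandibular molar, and the log2 ratio to papilla-like cells was -0.64 [-0.68, -0.60] and -0.70 [-0.75, -0.65], within 2-fold. Outside the shared barcodes, 18 maxillary odontoblast-like cells had 309 CPM, from 28 UMIs, against 1038 in papilla-like cells, which is past 2-fold. Gli1 was lower, with 11.3 and 8.79 CPM and log2 ratios of -1.35 and -1.92. Hhip was lower still, with 21.2 and 11.7 CPM and log2 ratios of -3.02 [-3.25, -2.81] and -3.57 [-3.90, -3.26]. Of the 9 genes, 2 in the maxillary and 3 in the mandibular molar were past 2-fold, all lower in odontoblast-like cells, where 31% and 35% of all genes tested were past it in either direction. The third mandibular gene was Gli3, with a log2 ratio of -1.16.

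In the epithelium, Ptch1 did not follow Shh from one group of cells to the next. When the epithelium was clustered again alone, several groups had high Ptch1 and little Shh. A P1 maxillary group of 95 cells led by Cadm2 and Adamts3 had 1038 CPM Ptch1 and 0 Shh UMIs (649 CPM Ptch1 in the 22 cells outside the shared barcodes), and a P1 mandibular group of 131 cells led by Prdm6 and Igfbp3 had 598 and 13.4. At E15.5 in the mandible, the 22 cells like stellate reticulum and stratum intermedium had 781 CPM Ptch1 [679, 894], and no Shh UMIs. Their name is weak, since 4 of its 6 markers were higher in them and the other two, Thbd and Cygb, were at 0. Enamel knot-like cells, with the most Shh, had 271, 208 and 275 CPM Ptch1. Over the 47 groups with at least 20 cells, Pearson's r of the log2 levels of Shh and Ptch1 was 0.27, as a description, since groups of 1 library share its depth and preparation. These groups were picked after their values were seen.

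**Figure D3:**
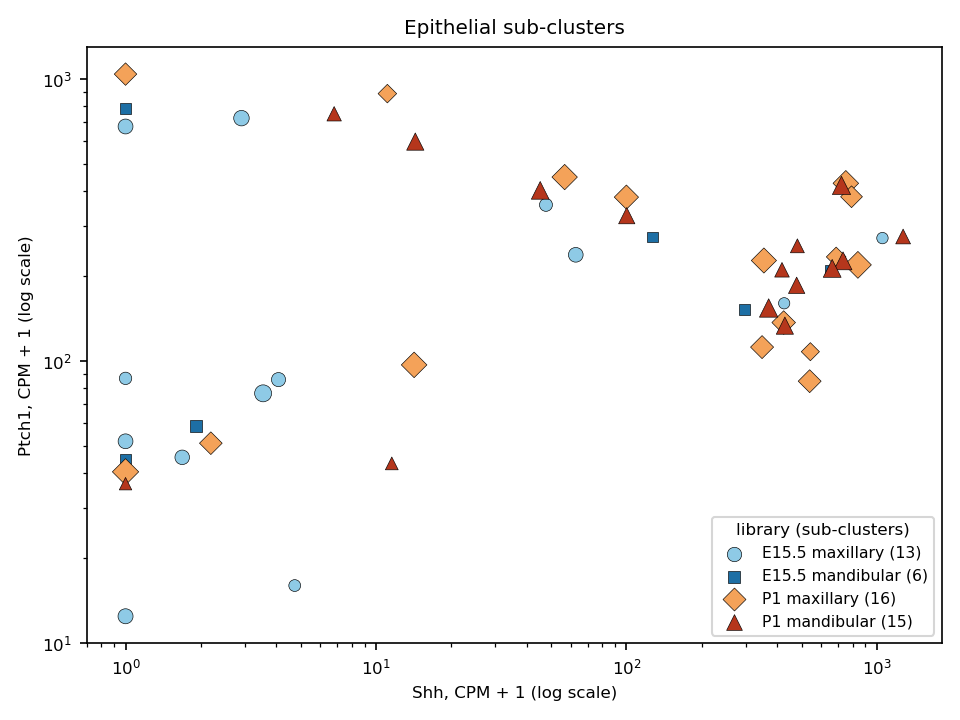
Shh (CPM plus 1) against Ptch1 (CPM plus 1) in the 50 groups of epithelial cells, on log axes. Each symbol is a group, with symbols by library and size by number of cells; several groups with at most 55.7 CPM Shh reach Ptch1 levels over 400 CPM, and the group with the highest Shh, at 1272 CPM, has 275 CPM Ptch1.

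Single cells with and without a Shh UMI were compared as well. In tooth epithelium-like cells thinned to 2000 UMIs, P1 maxillary cells with a Shh UMI had 302 CPM Ptch1 and those without had 279. At P1 in the mandible the levels were 281 and 330, and at E15.5 in the maxilla 250 and 290. At E15.5 in the mandible, 12 cells with a Shh UMI had 208 CPM and 39 without had 872. The levels were within 2-fold of each other in all but this last library, which has the fewest cells. Cells without a UMI may still express Shh at this depth.

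Gli1, a transcription factor whose own transcription depends on the signal (ENSMUSG00000025407, chr10:127329882-127341974, minus strand), was low and differed by less than 2-fold between the tissues. Its level was 14.2, 21.2, 27.1 and 31.0 CPM in the epithelium and 20.4, 19.5, 23.9 and 24.3 in the mesenchyme. As log2 ratios of epithelium to mesenchyme these gave -0.52 [-0.76, -0.29], 0.12 [-0.31, 0.52], 0.18 [0.04, 0.32] and 0.35 [0.21, 0.48]. The second was 1.09, past 2-fold, once every cell was thinned to 2000 UMIs. Without the shared barcodes the P1 maxillary ratio was -0.19. At E15.5 papilla-like cells had 46.1 and 48.9 CPM, with log2 ratios to the other mesenchyme of 1.44 and 1.64. At P1 these ratios were 0.64 and 0.66, within 2-fold, from levels of 28.7 and 33.2 in papilla-like cells. Outside the shared barcodes the P1 maxillary ratio was 1.18 [0.02, 2.14], from 9 UMIs in papilla-like cells. Osteoblast-like cells reached 50.2 CPM in the E15.5 maxillary molar, and the 22 E15.5 mandibular cells like stellate reticulum and stratum intermedium, which also had high Ptch1, had 71.0 [42.7, 111].

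Hhip, the ligand-binding inhibitor (ENSMUSG00000064325, chr8:79965851-80058006, minus strand), was a gene of the mesenchyme. Its level there was 61.2, 51.6, 134 and 86.8 CPM, against 1.77, 2.40, 2.0 and 1.29 in the epithelium. The log2 ratio of epithelium to mesenchyme was -5.11 [-5.80, -4.50], -4.42, -6.07 [-6.56, -5.62] and -6.07 [-6.67, -5.53], and it was -6.03 in the P1 maxillary molar without the shared barcodes. Enamel knot-like cells held 0 Hhip UMIs in all 3 libraries that had them, which allows up to 14.5, 8.21 and 5.06 CPM. Immune-like cells, expected to lack Hhip, had 3.29, 1.06, 9.67 and 15.01 CPM, and the epithelial level was above theirs in the E15.5 mandibular molar alone.

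Among mesenchymal cells Hhip did not always follow Ptch1. Papilla-like cells had 43.8, 162, 173 and 139 CPM Hhip, and their log2 ratios to the other mesenchyme were -0.36, 2.14, 0.86 and 1.12. Outside the shared barcodes the third was 0.89 [0.37, 1.37], from 112 and 60.5 CPM. The E15.5 maxillary papilla-like cells thus had high Ptch1 without high Hhip. The E15.5 maxillary osteoblast-like cells had 134 CPM, and the P1 mandibular cluster led by Bmp3 and Mdga2 had 274.

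Smo, the transducer of the signal (ENSMUSG00000001761, chr6:29735503-29761365, plus strand), was the most even of the 9 genes between the tissues. Its level was 78.7, 80.5, 97.2 and 97.0 CPM in the epithelium and 92.9, 83.0, 100 and 91.9 in the mesenchyme, and the P1 maxillary levels were 81.2 and 93.4 without the shared barcodes. Papilla-like cells had 109, 106, 109 and 104 CPM. At P1 odontoblast-like cells lay below papilla-like cells with log2 ratios of -0.69 and -0.71, within 2-fold.

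**Figure D4:**
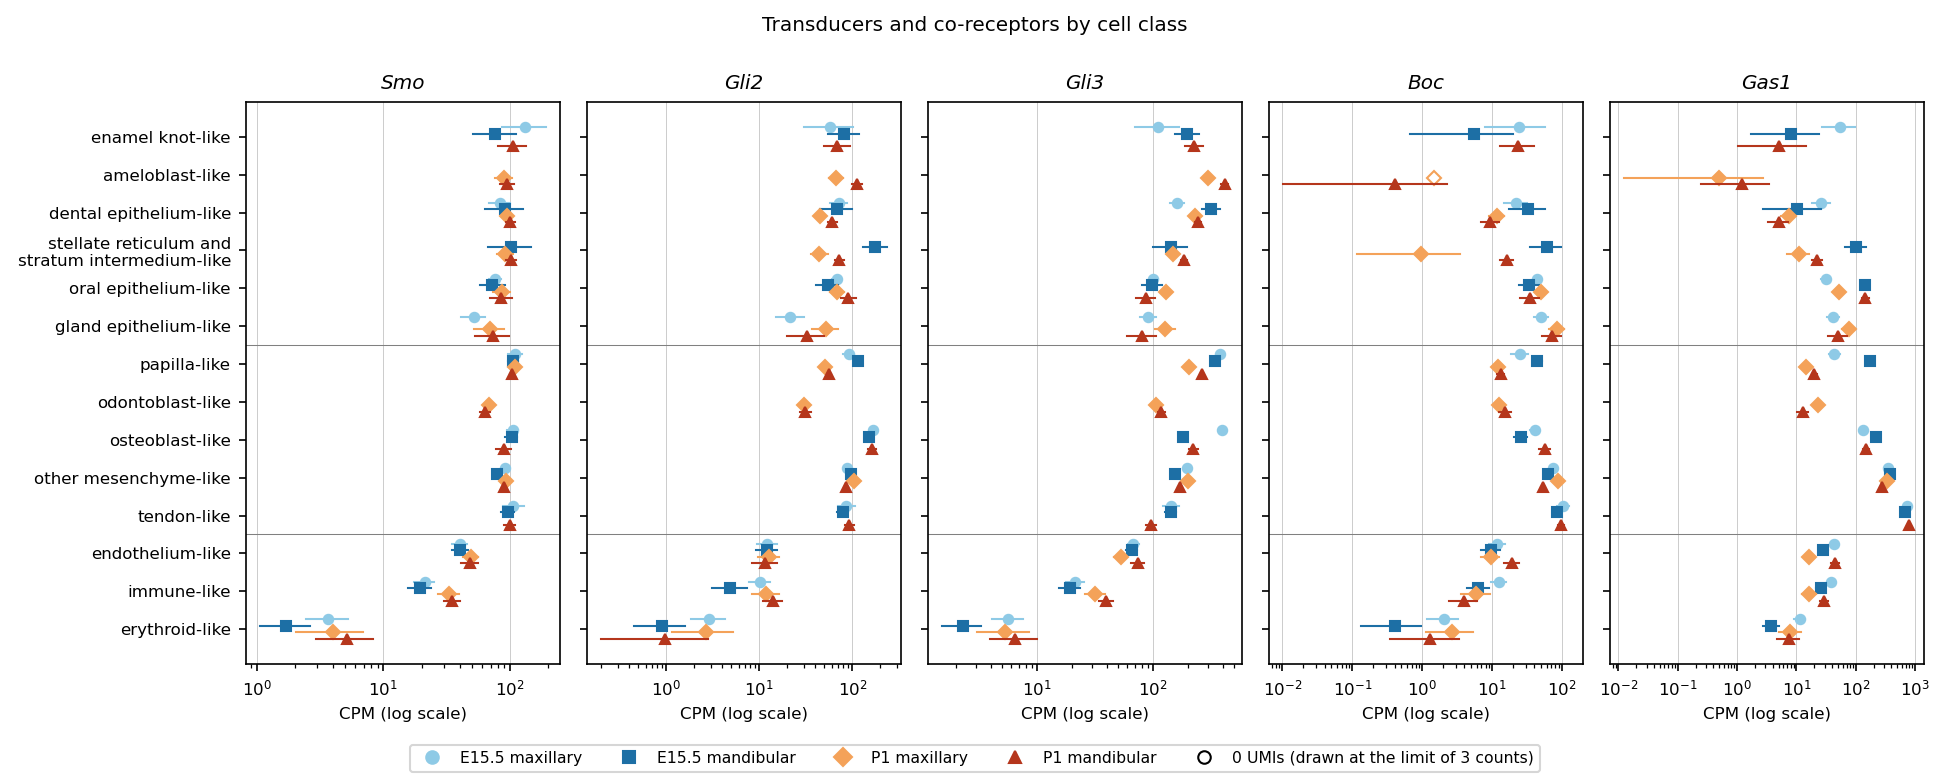
Levels of Smo, Gli2, Gli3, Boc and Gas1 (CPM, log axis) in the named cell classes of the 4 libraries, with 95% Poisson intervals as horizontal bars and open symbols for 0 UMIs, drawn at the level of 3 counts. Smo varies least, while Gas1 runs from near the limit of 3 counts in ameloblast-like cells to 780 CPM in tendon-like cells.

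Gli2, the main activator of the family (ENSMUSG00000048402, chr1:118834132-119053619, minus strand), and Gli3, its main repressor (ENSMUSG00000021318, chr13:15463235-15730026, plus strand), were present on both sides. Gli2 had 80.4, 71.3, 58.4 and 74.3 CPM in the epithelium and 93.2, 102, 64.1 and 71.4 in the mesenchyme. Gli3 had 124, 151, 206 and 221 in the epithelium and 218, 177, 194 and 201 in the mesenchyme. All 8 ratios were within 2-fold. Without the shared barcodes the P1 maxillary ratios were -0.57 for Gli2 and -0.38 for Gli3, from 78.4 and 173 CPM in the epithelium and 116 and 225 in the mesenchyme, so that Gli3 no longer lay higher in the epithelium. In papilla-like cells Gli3 was 376, 341, 206 and 264 CPM and Gli2 91.3, 115, 50.9 and 56.3, and outside the shared barcodes the P1 maxillary levels were 315 and 93.9. At P1 ameloblast-like cells had 298 and 414 CPM Gli3.

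The co-receptors Gas1 (ENSMUSG00000052957, chr13:60174405-60177365, minus strand) and Boc (ENSMUSG00000022687, chr16:44485049-44558897, minus strand) lay on the mesenchymal side, and mostly away from the tooth. Gas1 had 321, 339, 109 and 146 CPM in the mesenchyme and 56.7, 77.7, 20.9 and 26.2 in the epithelium, with log2 ratios of epithelium to mesenchyme of -2.50, -2.12, -2.38 and -2.48. Boc had 69.5, 58.5, 33.2 and 34.1 in the mesenchyme and 45.0, 28.0, 17.6 and 12.8 in the epithelium, with log2 ratios of -0.63, -1.06, -0.91 and -1.41. Gas1 was therefore past 2-fold in all 4 libraries and Boc in the mandibular ones. Without the shared barcodes the P1 maxillary ratios were -2.50 for Gas1 and -0.78 for Boc, with 271 and 90.4 CPM in the mesenchyme.

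In the mesenchyme, papilla-like cells had less Gas1 than the other mesenchyme, and so did the E15.5 mandibular cluster led by Col8a1. They had 43.8, 171, 14.6 and 20.05 CPM Gas1, with log2 ratios to the other mesenchyme of -2.99, -1.12, -4.56 and -3.78. Outside the shared barcodes, the P1 maxillary papilla-like cells had 18.2 CPM and the other mesenchyme 280. Without the Csmd1-led cluster the P1 mandibular ratio was -4.34. Their Boc level was 24.7, 43.9, 11.9 and 13.1, with log2 ratios of -1.58, -0.53, -2.86 and -2.01, and outside the shared barcodes the third was -3.36, from 3 UMIs in papilla-like cells. Tendon-like cells, with little Ptch1, had 721, 680 and 780 CPM Gas1 in the libraries where they were named. Their log2 ratios to papilla-like cells were 4.04, 1.99 and 5.28 for Gas1 and 2.05, 0.92 and 2.86 for Boc, where 22.6%, 21.7% and 30% of all genes tested were past 2-fold. Over the 125 clusters of all 4 libraries, Pearson's r of Gas1 and Ptch1 was 0.12, and the E15.5 mandibular cluster led by Col8a1 had 171 CPM Gas1 beside 564 CPM Ptch1.

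Both co-receptors were also scarce in ameloblast-like cells. These held 0 and 1 Boc UMIs and 1 and 3 Gas1 UMIs in the P1 maxillary and mandibular molars. Over the 47 epithelial groups, Pearson's r with Shh was -0.76 for Boc and -0.65 for Gas1, again as a description. Within the E15.5 maxillary, P1 maxillary and P1 mandibular groups it was -0.34, -0.82 and -0.72 for Boc. For Gas1 it was -0.29, -0.65 and -0.71. In tooth epithelium-like cells thinned to 2000 UMIs, P1 mandibular cells with a Shh UMI had 3.19 CPM Boc and those without had 20.6, from 3 and 21 UMIs. In the other libraries these levels rested on at most 6 UMIs, and in the E15.5 maxillary molar they lay the other way round, at 44.1 and 21.7.

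The remaining genes of the pathway were taken from 7 lists with 50 genes in all. Of the 11 genes of signal transduction (Sufu, Kif7, Stk36, Gpr161, Evc, Evc2, Spop, Prkaca, Csnk1a1, Gsk3b and Grk2), 0 were past 2-fold between epithelium and mesenchyme in any library. Among all genes tested, 33.3%, 31.7%, 35.4% and 34% were. The median log2 ratio of the 11 genes was -0.42, 0.16, 0.26 and 0.12, against -0.06, 0.02, -0.05 and 0.00 over all genes tested. Of the 7 genes of the primary cilium, 0, 0, 1 and 1 were past 2-fold, against the same shares of all genes tested, with medians of -0.22, -0.06, 0.22 and 0.47. The gene was Tulp3, a ciliary trafficking adaptor, with 67.5 CPM in the P1 maxillary epithelium against 26.0 in the mesenchyme, and 69.8 against 23.4 in the mandible, and without the shared barcodes the maxillary levels were 49.8 and 35.7, within 2-fold. Of the 5 genes of ligand processing and release, Scube3, a secreted factor that aids ligand release, was higher in the epithelium in all 4 libraries. Its relatives were lower in 2, 0, 1 and 1 cases, of which Scube1 was lower in all but the E15.5 mandibular molar. Among all genes tested, 13.1%, 14.4%, 12.4% and 12.9% were higher and 20.2%, 17.3%, 23% and 21% lower. The medians of these 5 genes were -0.24, -0.48, 0.13 and -0.08. In the P1 maxillary molar outside the shared barcodes both Scube1 and Scube2 were lower, the latter from 4 epithelial UMIs. There 3 of the 5 genes were past 2-fold in either direction, where 30.3% of all genes tested were. The shares of all genes by direction are with these barcodes kept.

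Of the 9 genes described as targets, 5, 5, 4 and 5 were lower in the epithelium, where 20.2%, 17.3%, 23% and 21% of all genes tested were, and 2, 0, 0 and 0 were higher. In the P1 maxillary molar outside the shared barcodes, 4 were lower and 2 higher, Ccnd1 at 1.74 and Foxc2 at 1.35 from 7 epithelial UMIs. The 23% of all genes is with these barcodes kept. Without them, 6 of the 8 targets tested were past 2-fold in either direction, where 30.3% of all genes tested were. With these barcodes kept, the median log2 ratio of the targets was -1.07, -2.59, -2.72 and -4.65. The forkhead genes Foxf1, Foxf2 and Foxd1 and the palate and tooth transcription factor Osr2 were lower in all 4 libraries, with log2 ratios of -4.21, -4.83, -6.23 and -6.92 for Osr2. Of the 13 enamel knot and epithelial signals, some of which also named the knot-like cells, 13, 10, 12 and 12 held enough UMIs to be tested. Of these, 10, 7, 4 and 5 were higher in the epithelium, against 13.1%, 14.4%, 12.4% and 12.9% of all genes tested. A further 2, 3, 3 and 2 were lower, with Fgf3 among them in every library, Bmp4 in all but the P1 mandibular and Bmp2 in all but the E15.5 maxillary one. In the P1 maxillary molar 7 were higher and 3 lower without the shared barcodes. The 12.4% of all genes is with them kept. Without them, 10 of the 10 signals tested were past 2-fold in either direction, where 30.3% of all genes tested were. Fgf9 and Edar were higher in all 4 libraries, and the medians of the list were 3.16, 2.79, 0.34 and 0.58. The other ligands, Ihh and Dhh, were under 20 UMIs in nearly all comparisons.

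When tooth epithelium-like cells were set against papilla-like cells, a comparison chosen after seeing the data, 4, 3, 4 and 3 of the 9 genes were past 2-fold, where 24.6%, 29.4%, 36.5% and 34.6% of all genes tested were. Shh was at least 173-fold and at least 394-fold higher in the tooth epithelium at E15.5, where papilla-like cells held 0 Shh UMIs, and its log2 ratio at P1 was 7.18 [6.95, 7.42] and 6.79 [6.49, 7.10]. Ptch1 was lower in the tooth epithelium, with log2 ratios of -1.97 [-2.13, -1.80], -0.56 [-0.72, -0.41], -1.86 [-1.92, -1.80] and -1.60 [-1.65, -1.55], of which the second was within 2-fold. Outside the shared barcodes the P1 maxillary ratios were 4.10 [2.49, 6.41] for Shh, from 3 UMIs in papilla-like cells, and -2.38 [-2.72, -2.04] for Ptch1. Boc was within 2-fold in all 4 libraries here, with log2 ratios from -0.72 to -0.15. Outside the shared barcodes its P1 maxillary ratio was 1.23 [-0.73, 3.73], from 10 and 3 UMIs, too few to be tested.

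Between stages, more Shh was found in the epithelium at P1 and less Gas1 in both tissues. In the maxillary epithelium the log2 ratio of P1 to E15.5 was 3.34 [3.20, 3.49] for Shh, -1.35 [-1.55, -1.16] for Boc and -1.44 [-1.62, -1.26] for Gas1, and in the mandibular epithelium 1.31 [1.16, 1.46], -1.13 [-1.52, -0.73] and -1.57 [-1.81, -1.32]. These were the only 3 of the 9 genes past 2-fold, where 20.8% and 19.8% of all genes tested were. Within tooth epithelium-like cells Shh went from 241 to 476 CPM in the maxilla and from 279 to 433 in the mandible, log2 ratios of 0.98 and 0.63 [0.46, 0.81], both within 2-fold. The share of tooth cells in the epithelium rose over the same interval, and its part in the change over the whole epithelium was not tested. In the same cells Boc had log2 ratios of -1.62 and -1.48 and Gas1 of -2.14 and -1.61, and these were the 2 of 8 genes past 2-fold in each jaw, where 20.5% and 21.9% of all genes tested were. Without the shared barcodes the maxillary epithelial ratios were 0.86 for Shh, 0.23 for Boc and -0.24 for Gas1, all within 2-fold, with 11.9% of all genes tested past it. Those of tooth epithelium-like cells were -0.64 [-1.02, -0.27] for Shh, -0.07 for Boc and -1.49 for Gas1, with 180 cells left at P1, so that Shh turned from higher to lower at P1.

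In the mesenchyme Ptch1 was higher at P1 and Gas1 lower. The log2 ratio of P1 to E15.5 for Ptch1 was 1.77 [1.74, 1.80] in the maxilla and 2.17 [2.13, 2.21] in the mandible, and for Gas1 -1.57 [-1.60, -1.53] and -1.21 [-1.25, -1.17]. Hhip (1.13) and Boc (-1.07) were past 2-fold in the maxilla alone. Shh had ratios of 4.81 and 6.70, from 6 and 2 UMIs at E15.5 to 217 and 323 at P1. With Shh, 5 and 3 of the 9 genes were past 2-fold, where 17.3% and 18.8% of all genes tested were. Without the shared barcodes the maxillary ratios were -0.18 for Ptch1, 0.00 for Hhip, 0.38 for Boc and -0.25 for Gas1, with 0 of the 8 genes tested past 2-fold and 7.56% of all genes tested. Shh, with 6 UMIs at each stage, held too few to be tested and had a ratio of 2.28 [0.37, 4.18].

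Within maxillary papilla-like cells, the stage difference of Ptch1 was small. Its log2 ratio of P1 to E15.5 was 0.03 [-0.04, 0.09]. Gas1 was lower at P1, at -1.59 [-1.90, -1.26], and so was Boc, at -1.05 [-1.46, -0.61], while Hhip was higher, at 1.98 [1.69, 2.29]. Together 4 of the 9 genes were past 2-fold, Shh among them from 0 UMIs at E15.5, where 20% of all genes tested were. Outside the shared barcodes, with 110 cells at P1, the ratios were 0.21 [0.04, 0.37] for Ptch1, 1.36 [0.77, 1.92] for Hhip, -1.27 [-2.75, -0.09] for Gas1 and -1.44 [-3.77, 0.18] for Boc, of which Gas1 and Boc rested on 6 and 3 UMIs at P1, and 16.1% of all genes tested were past 2-fold. Mandibular papilla-like cells are not described between stages, because of the leading genes of the E15.5 cluster.

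**Figure D5:**
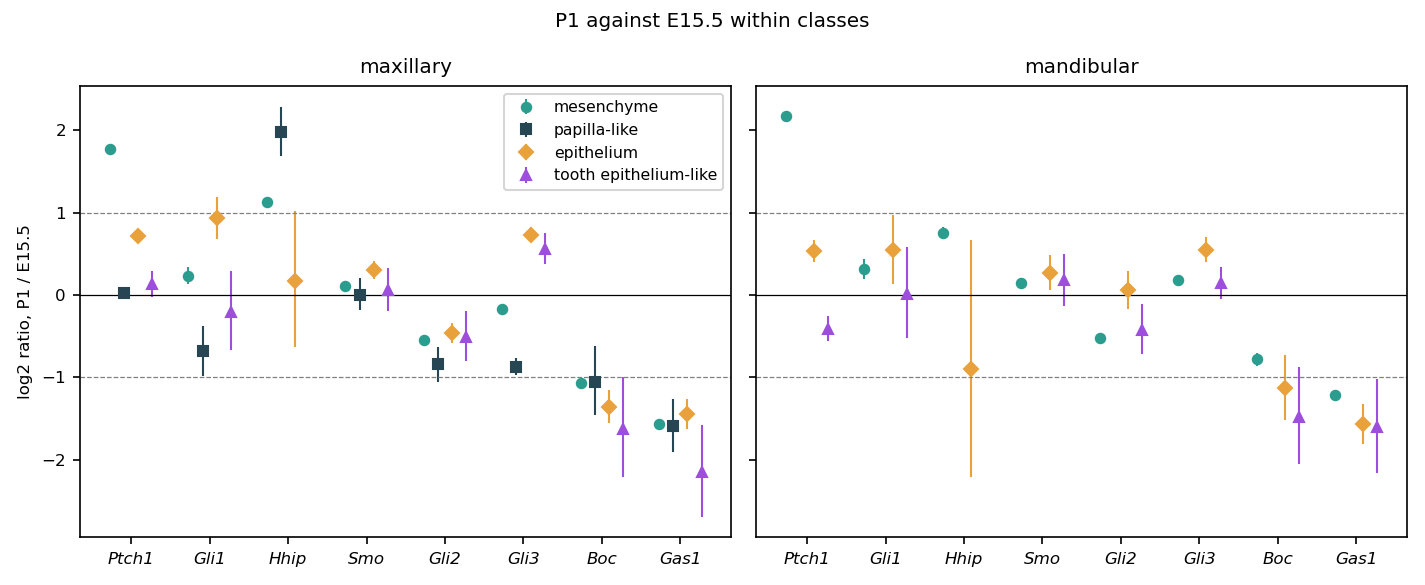
Log2 ratio of P1 to E15.5 for 8 of the 9 genes (Shh left out) in the maxillary and the mandibular molar, for all mesenchyme, papilla-like cells (maxillary molar only), all epithelium and tooth epithelium-like cells. Points are ratios of summed levels, bars are 95% counting intervals; Ptch1 lies at 1.77 and 2.17 in all mesenchyme but at 0.03 in maxillary papilla-like cells. All maxillary points include the shared barcodes.

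Among the listed genes, Cdon, a co-receptor related to Boc, went in the mesenchyme from 109 to 38.2 CPM in the maxilla and from 130 to 55.6 in the mandible, log2 ratios of -1.51 and -1.23, and was at 86.2 in the P1 maxilla without the shared barcodes. Of the 9 genes described as targets, 2 were higher and 1 lower at P1 in the maxillary mesenchyme and 4 higher and 0 lower in the mandibular, where 17.3% and 18.8% of all genes tested were past 2-fold. Ccnd1, a cell cycle gene, and Mycn, a MYC-family transcription factor, were higher in both, with log2 ratios of 1.27 and 1.01 for Ccnd1 and of 1.45 and 1.86 for Mycn. The maxillary ratios were -0.59 and -0.49 without the shared barcodes. Of the 11 genes of signal transduction, 0 were past 2-fold in the mesenchyme. In the epithelium of each jaw 1 of them was, where 20.8% and 19.8% of all genes tested were. That gene was Kif7, a kinesin that regulates Gli proteins in the cilium, which went from 5.23 to 17.2 CPM in the maxilla and from 8.01 to 19.4 in the mandible, and was at 6.57 in the P1 maxilla without the shared barcodes.

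Between the jaws, few of the 9 genes were past 2-fold as long as the shared barcodes were kept in the P1 maxillary library. Of the genes tested at E15.5, 0 of 8 were past 2-fold between maxillary and mandibular mesenchyme and 1 of 9 between the epithelia, where 9.9% and 10.5% of all genes tested were. That gene was Shh, with 35.1 CPM in the maxilla against 149 in the mandible, a log2 ratio of -2.09. Within tooth epithelium-like cells its ratio was -0.21 [-0.44, 0.02], with 0 of 8 genes past 2-fold against 11.9% of all genes tested, and these cells were 15.2% of the maxillary and 45.0% of the mandibular epithelium. At P1, 0 of 9 were past 2-fold in the mesenchyme and in the epithelium, where 8.52% and 5.79% of all genes tested were.

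In P1 papilla-like and tooth epithelium-like cells 0 of 9 were past it, where 6.47% and 7.37% of all genes tested were. Without the barcodes found in both libraries, 8 of the 9 genes stayed within 2-fold in papilla-like cells, with 0.26 [0.10, 0.41] for Ptch1, and Shh was past it from 3 maxillary UMIs, where 28.2% of all genes tested were past it. Over the whole tissues, without these barcodes 3 genes were past 2-fold in the P1 mesenchyme and 4 in the epithelium, where 19.7% and 20.9% of all genes tested were. In the mesenchyme the log2 ratios of maxilla to mandible were -3.38 for Shh, from 6 maxillary UMIs, -1.75 for Ptch1 and 1.41 for Boc. In the epithelium they were -2.53 for Shh, -1.02 for Ptch1, -1.52 for Gli1 and 2.04 for Boc. Within tooth epithelium-like cells Shh was at -1.48 [-1.83, -1.15], with 155 CPM in the maxilla against 433, and Ptch1 at -0.52, and 22% of all genes tested were past 2-fold.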

How the data were processed

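Tooth organs were dissociated and captured with 10x Genomics 3′ chemistry, 1 library per stage and jaw. The authors deposited raw UMI counts per gene and barcode, made with Cell Ranger 7.0.1 on mm10 and called as cells by it, without normalization and before the study's own filters. The 9 genes, the other lists and the marker lists were chosen with earlier results of these data known. The genes named are the 9 members, the 50 genes of 7 other lists, and the 5 genes most like Shh and Gli1, of which some are not reported here. Clusters and groups named beside them were chosen after their values were seen.

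Barcodes with under 1000 UMIs were left out, and from the P1 mandibular library any barcode also in the P1 maxillary one. Each library was clustered alone with scanpy 1.11.5 (2000 variable genes without the members and listed genes, 40 principal components, 15 neighbours, Leiden resolution 1, leidenalg 0.10.2). The epithelium was clustered again on 20 components. Clusters were named from 22 marker lists, by thresholds set after the clusters were seen, and are called X-like. Doublets were not removed cell by cell, but clusters with over 50% of cells among the top doublet scores were left out. scDblFinder was not used here.

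Levels have exact Poisson intervals and ratios and shares exact binomial ones (95%, counting error only). A class at 0 was set to 3 counts. With 1 library per group no test was run. The steps were tested on simulated data. Alternatives were the study's filters, a minimum of 2000 UMIs, thinning to 2000 UMIs, other treatments of the shared barcodes, naming by each cell's own markers, a mean over cells, and no minimum of 20 UMIs. Comparing the tooth classes, leaving out the Col8a1 or the Csmd1 cluster, and leaving the shared barcodes out of finer classes were added after seeing the data.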

Additional observations from a re-analysis of the deposited data

Results flagged for a closer look

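Ptch1 differed in direction between libraries when epithelium was set against mesenchyme. The log2 ratio was 0.57 in the E15.5 mandibular molar, and -1.24 and -1.07 in the P1 maxillary and P1 mandibular molars. The difference between the libraries was not tested, since each stage and jaw has 1 library. The papilla-like and odontoblast-like share of the mesenchyme was 12.4% in the E15.5 mandibular molar, where it is the cluster led by Col8a1, and 44.3% and 44.4% at P1. Without the barcodes that the P1 libraries share, the P1 maxillary ratio was -0.34 and the share 3.01%.

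The barcodes left out of the P1 mandibular library, because the P1 maxillary library also holds them, held UMIs of these genes too. Which library these UMIs came from was not tested. These 6690 barcodes had 90.8 CPM Shh and 619 CPM Ptch1, summed over all of them without regard to cell class.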

How the results depend on the processing

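No paired analysis was possible because each stage and jaw has 1 library, and for the same reason leaving out a replicate was not possible. Of the 16 ratios of a member between epithelium and mesenchyme past 2-fold, 16 kept their direction under every alternative run and 10 stayed past 2-fold. Of 14 such ratios between stages, 11 kept their direction and 3 stayed past 2-fold throughout, and of 1 between jaws, 1 and 0. Leaving the shared barcodes out of both P1 libraries reversed 3 stage ratios, to -0.18 for Ptch1 and 0.38 for Boc in the maxillary mesenchyme and 0.23 for Boc in the maxillary epithelium. It also gave 0.19 for Gli1 of mesenchyme to epithelium at P1 in the maxilla, and counts of members past 2-fold of 0 and 0 between stages in the maxillary mesenchyme and epithelium, and of 3 and 4 between jaws at P1 in the mesenchyme and epithelium. Keeping them in both gave 1 between jaws in the P1 epithelium. Ratios below are of epithelium to mesenchyme for Shh and of mesenchyme to epithelium for Gli1. With cells named by their own markers, Shh at E15.5 in the maxilla was 6.37, Gli1 was 0.20 and -0.55 in the E15.5 maxilla and mandible, and the counts between jaws in mesenchyme were 1 at E15.5 and 1 at P1. With a mean over cells, Gli1 in the E15.5 maxilla was 0.22, Shh at P1 was 7.38 and 6.43, and counts were 2 between stages in the maxillary mesenchyme, 3 between jaws in the E15.5 epithelium and 1 in the P1 mesenchyme. With cells thinned, Shh was 8.31 in the E15.5 mandible and 7.34 and 6.95 at P1, Gli1 was -1.09 in the E15.5 mandible, and the counts were 2 between stages in the maxillary mesenchyme and 3 between jaws in the E15.5 epithelium. With the tooth classes, added after seeing the data, Shh was at least 8.62 in the E15.5 mandible and 6.79 in the P1 mandible, Gli1 was 0.70, 0.24 and 0.13 in the E15.5 mandible and the P1 maxilla and mandible, and counts were 3 between tissues in the P1 mandible, 2 between jaws in the E15.5 mesenchyme, where the mandibular cells are the cluster led by Col8a1, and 0 in the E15.5 epithelium. With the study's filters Shh at P1 was 7.89 and 7.36. The count between jaws in the E15.5 mesenchyme was 1 with no minimum of UMIs and 1 without the Col8a1 cluster, also added after seeing the data. Apart from the alternatives' own construction, the cause was not tested. Ratios of Hhip rest on few epithelial UMIs (21, 6, 39 and 27), and E15.5 ratios of Shh on 6 and 2 mesenchymal UMIs. Boc and Gas1 rest on few UMIs in ameloblast-like cells.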

Other observations

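Over the 125 clusters of all 4 libraries, the genes whose level was most like that of Shh, by Pearson's r of log2(CPM + 1) among 10982 genes, were Wnt3a (0.92), Igfbpl1 (0.92), 9530036O11Rik (0.90), Cyp26a1 (0.90) and Vwde (0.90). Vwde is also among the markers that named dental epithelium-like cells. Among the 5 genes most like Gli1 were Sdc1 (0.82), Heph (0.79), Sema5a (0.79) and Ror2 (0.78). Among the 9 genes themselves, r was 0.90 for Gli2 and Gli3, 0.86 for Boc and Gas1, 0.80 for Gli1 and Ptch1 and 0.73 for Hhip and Ptch1. Clusters of 1 library share its depth and preparation, and r is a description.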
